A study of Rattus norvegicus with 9 samples.

Results

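The genes described here are 43 named genes of the interferon response, taken as a list of symbols and looked up in the deposited table of gene counts. Of these, 42 had a row among the 17337 genes of the table, and all 42 passed the filter on low counts that left 11337 genes to be tested. The rule itself used no measured value, but the genes were chosen with earlier results of these data known. The interferon receptor subunit Ifnar2 was not analysed here. RNA was sequenced from 9 cultures of cardiac fibroblasts, the connective-tissue cells of the heart that make and remodel its matrix, from Sprague Dawley rats. The 3 fetal libraries came from embryonic day 18, the 3 neonatal libraries from postnatal day 1 and the 3 adult libraries from rats 7 weeks old. All cultures were of freshly isolated, passage 0 cells that were grown until confluent in DMEM with serum, antibiotics and ascorbic acid. The labels name no interferon, virus or other treatment and no allele or transgene in any group. The labels name no sorting step and do not say whether libraries of an age came from separate animals, so p-values measure only the spread between these libraries, which may be technical.

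Interferons are secreted proteins that warn cells of infection. Type I interferons bind a receptor made of Ifnar1 and Ifnar2, and interferon gamma binds a receptor made of Ifngr1 and Ifngr2. The receptors' kinases activate STAT proteins, which with Irf9 or alone enter the nucleus and switch on a large set of antiviral genes. Many of these genes also have a low tonic level in cells that meet no virus, and in the heart both fibroblasts and resident macrophages are known to express them. Their products detect foreign RNA and DNA, cut or block viral RNA, hold viruses at membranes and pass the signal on.

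The DNA that these signals act on is shown here for 7 genes, each with a motif match, from several roles and with changes that differ in size; 11 of the 31 promoters searched had no match. Interferon regulatory factors recognise a repeated GAAA-type element, searched here as GAAANNGAA on both strands, so that it reads as TTC and TTTC around the 2 free bases where it lies on the other strand. STAT dimers recognise the palindrome TTCNNNGAA, called the GAS element. Sequences are from RefSeq on assembly GRCr8, bases -150 to -1 before the annotated gene start, 5′ to 3′ on the gene's strand, with every match to either motif in capitals.
Ifitm3 promoter, chr1:205541759-205541908, minus strand, the most abundant of the genes per exon length: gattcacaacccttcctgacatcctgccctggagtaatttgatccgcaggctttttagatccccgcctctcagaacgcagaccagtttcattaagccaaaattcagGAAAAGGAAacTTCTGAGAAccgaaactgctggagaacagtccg
Bst2 promoter, chr16:18254968-18255117, minus strand, a membrane protein gene, with 1 GAS match running into 2 overlapping matches of the interferon regulatory factor motif: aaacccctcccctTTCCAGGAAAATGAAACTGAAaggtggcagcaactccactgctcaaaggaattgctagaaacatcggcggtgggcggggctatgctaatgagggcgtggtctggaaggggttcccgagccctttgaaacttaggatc
Gbp2 promoter, chr2:234005577-234005726, plus strand, guanylate-binding protein: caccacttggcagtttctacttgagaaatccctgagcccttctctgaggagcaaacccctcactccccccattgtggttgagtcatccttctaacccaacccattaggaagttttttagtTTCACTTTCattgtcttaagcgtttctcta
Ifit3 promoter, chr1:241527176-241527325, plus strand, with 2 matches: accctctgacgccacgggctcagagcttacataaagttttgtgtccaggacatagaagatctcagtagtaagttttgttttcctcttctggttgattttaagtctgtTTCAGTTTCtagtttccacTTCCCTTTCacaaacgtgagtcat
Oas1a promoter, chr12:41330316-41330465, plus strand, with 2 overlapping matches: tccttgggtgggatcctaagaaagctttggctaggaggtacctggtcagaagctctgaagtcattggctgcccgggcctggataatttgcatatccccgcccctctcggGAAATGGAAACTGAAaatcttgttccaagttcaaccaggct
Irf1 promoter, chr10:38417785-38417934, plus strand, with a GAS match and no match of the other motif: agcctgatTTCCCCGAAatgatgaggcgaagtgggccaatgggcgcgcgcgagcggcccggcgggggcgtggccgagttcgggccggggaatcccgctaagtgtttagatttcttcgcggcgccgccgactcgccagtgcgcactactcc
Eif2ak2 promoter, chr6:21941004-21941153, plus strand, with a match, and with a level that was not called different between any ages: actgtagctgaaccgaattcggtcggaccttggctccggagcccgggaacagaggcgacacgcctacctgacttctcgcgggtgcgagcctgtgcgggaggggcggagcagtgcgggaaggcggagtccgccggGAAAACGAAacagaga

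RefSeq promoters, from 250 bases before to 50 bases after a gene start, were given for 31 of the 42 genes. The motif GAAANNGAA was present in 16 of these 31 (51.6%), against 2608 of all 27457 promoters of the same length (9.50%). TTCNNNGAA was present in 8 of the 31 (25.8%), against 2382 of all promoters (8.68%). The genes were listed for their part in the interferon pathway or response, so these shares describe the list. Of the 22 matches of GAAANNGAA, 16 lay within the last 100 bases before the start. The 8 genes with TTCNNNGAA were Irf1, Irf8, Irf9, Oas1a, Bst2, Ifitm3, Parp14 and Samhd1. In Bst2 both motifs overlapped, and in Parp14 and Ifitm3 they lay 2 bases apart. A match is a stretch of letters and not a measured binding site.

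**Figure D1:**
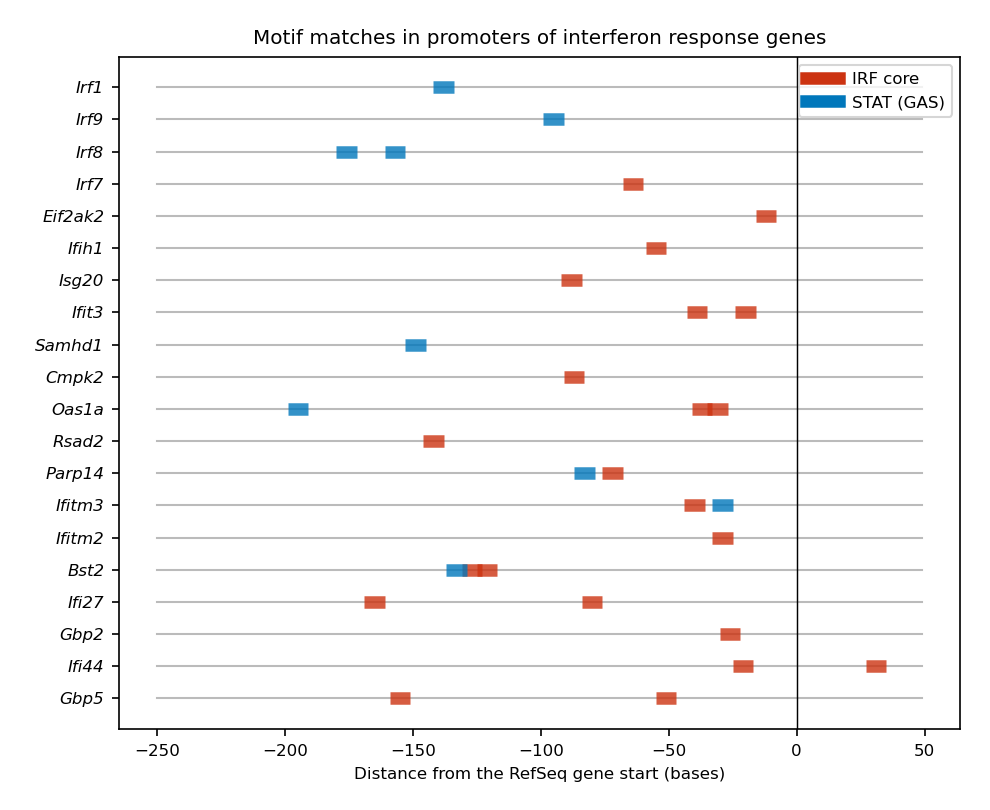
Positions of motif matches, in bases from the RefSeq gene start (vertical line), for the 20 of 31 genes with at least 1 match; each grey line is a searched promoter, red marks GAAANNGAA and blue TTCNNNGAA. Of the 22 red matches, 16 lie in the 100 bases before the start.

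Levels are given as CPM, counts per 1000000 assigned counts with TMM-scaled library sizes, and per kilobase of exon where genes are compared with each other. A gene was called where edgeR's quasi-likelihood test over all 9 libraries gave a Benjamini-Hochberg adjusted p under 0.05 over all genes tested. Differences are log2 fold changes with their standard error (SE), and levels are means ± SD with n = 3 for each age. The SE was derived from the fold change and the test's F value, and at low counts it can fall below counting error. The exact p of a comparison of 3 libraries with 3 by permutation cannot go below 0.10, so all p-values here come from the model over all genes. Library totals ran from 13392825 to 22850491 assigned counts. The 3 counts used as the floor were worth 0.132 to 0.230 CPM in 1 library, and intervals on ratios cover counting error only. The 10 fibroblast markers summed to 26495 to 53252 CPM in fetal, 70675 to 76919 CPM in neonatal and 26667 to 34608 CPM in adult libraries, and from neonatal to adult 4 were higher and 4 lower without overlap. Col1a1, a chain of type I collagen, ran from 11890 to 40025 CPM and Vim, vimentin, from 3364 to 5784 CPM. Tcf21 measured 6.91 to 14.4 CPM in fetal and 108 to 226 CPM in adult libraries. The row named Col1a2 stayed below 1 CPM in all libraries. That row spans bases 29529854 to 31569152 of chromosome 4 (rn6) for 8930 exon bases, and whether its counts measure Col1a2 was not tested. Cardiomyocyte markers summed to 9083 to 13035 CPM in fetal, 5992 to 6614 CPM in neonatal and 304 to 319 CPM in adult libraries, where the 9 other than Tnnt2 summed to 1.16 to 2.995 CPM. Fetal replicate 3 stood apart from the other 2 fetal libraries over all genes, with chi-square per degree of freedom of 90.0 and 97.3 against them and 3.94 between those 2. Adult replicate 1 stood apart too, though less, with 25.8 and 43.0 against the other 2 adult libraries and 6.76 between those 2.

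From fetal to adult cultures 39 of the 42 genes were called higher and 1, Samhd1, lower, while 34.9% of all genes tested were called higher and 35.5% lower. Their median log2 fold change was 2.39, beside -0.01 over all genes tested. From fetal to neonatal cultures 21 were called higher and none lower, with 18.3% of all genes called higher and 18.0% lower, and the medians were 0.88 and -0.01. At an unadjusted p under 0.05 edgeR gave 25 higher and 1 lower there, the latter Samhd1, which DESeq2 called lower at an adjusted p under 0.05. From neonatal to adult cultures 37 were called higher and none lower, with 31.6% and 31.8% of all genes, and the medians were 1.33 and -0.01; at an unadjusted p under 0.05 edgeR gave 0 lower, as DESeq2 did. Where the steps from fetal to neonatal and from neonatal to adult cultures are set side by side for a gene below, their difference was not tested. Ordered from the lowest mean, the ages were fetal, neonatal, adult in 37 of the 42 genes; the other orders were those of Ifih1 and Eif2ak2 (neonatal highest), Oas2 and Usp18 (neonatal lowest) and Samhd1 (adult lowest). The groups did not overlap, with the older age higher, in 27 genes for neonatal against fetal (29.2% of all genes), 39 for adult against fetal (35.9%) and 38 for adult against neonatal (37.6%). In the opposite direction 1 gene did so in each pair, beside 28.1%, 35.8% and 38.5% of all genes. That gene was Samhd1 in the comparisons with fetal cultures and Eif2ak2, which was not called, in adult against neonatal.

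A part of these genes entered the test only through the adult libraries. The 31 genes above the filter in the libraries of all 3 ages gave 28 called higher and 1 lower in adult against fetal, 21 and 0 in neonatal against fetal, and 26 and 0 in adult against neonatal. Their median log2 fold changes were 1.90, 0.74 and 0.99. Over all genes tested, the shares called higher and lower were 34.9% and 35.5%, 18.3% and 18.0%, and 31.6% and 31.8% in the same order. These shares include genes below the filter at some ages, and a share over genes above it at all ages was not computed. The 8 genes above it in adult libraries alone were Irf4, Mx1, Ifit1, Oas1a, Oas2, Rsad2, Usp18 and Zbp1, and Mx2, Ifit3 and Oasl were above it in neonatal and adult libraries. These 11 had to be higher in the later ages to be counted, so their calls add nothing to the direction.

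**Figure D2:**
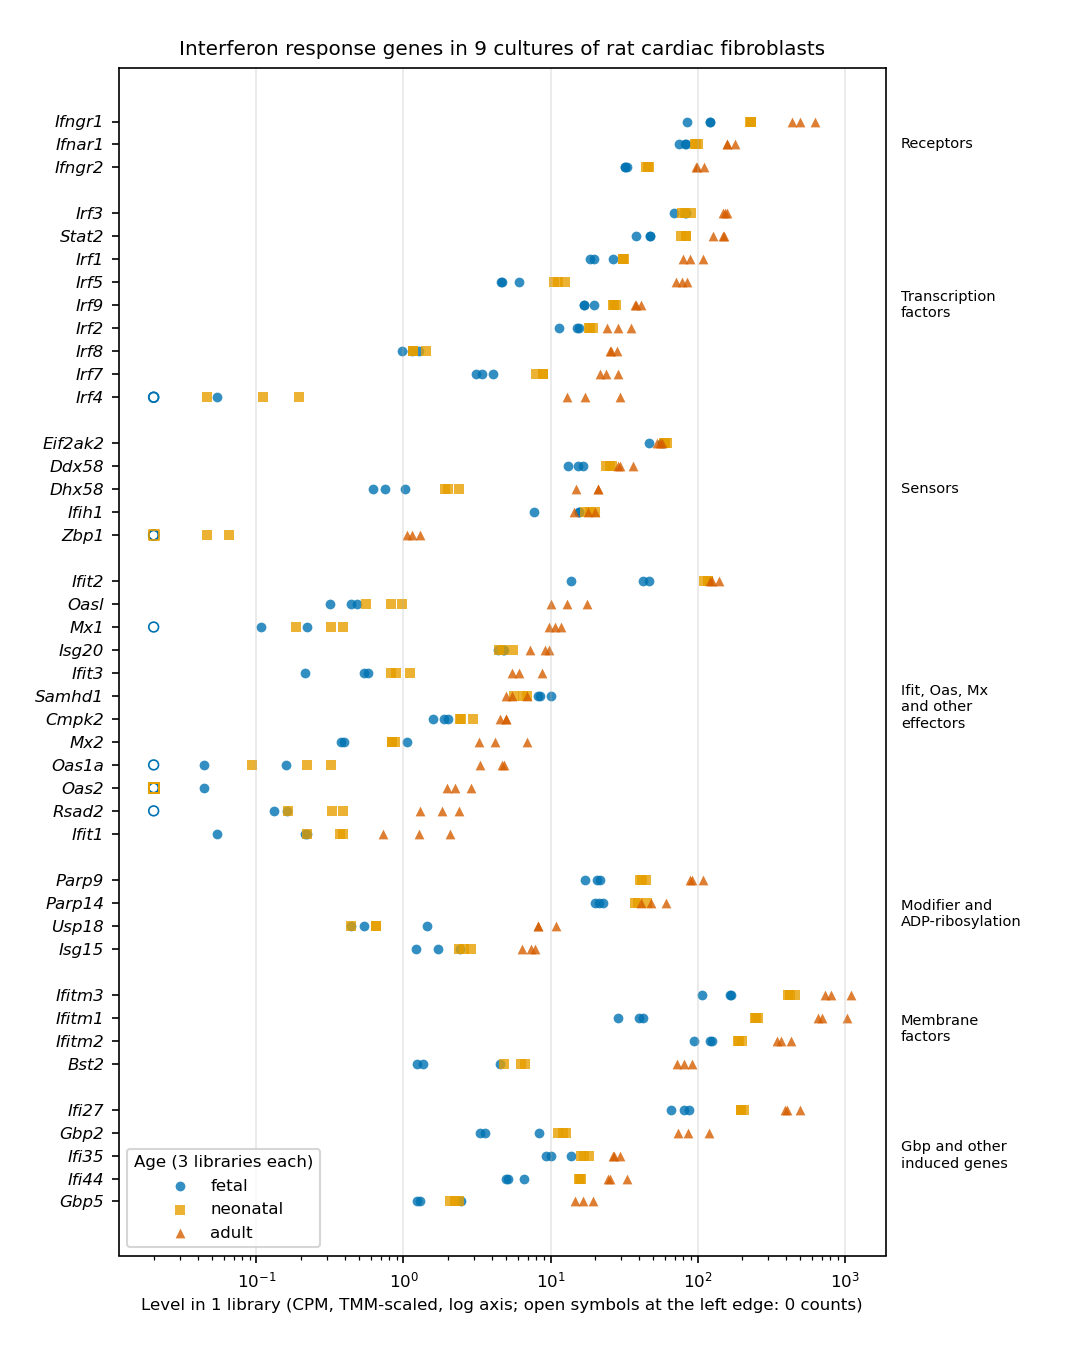
Level of each of the 42 genes in each of the 9 libraries (CPM, log axis), grouped by role and sorted within a role by adult mean; circles are fetal, squares neonatal and triangles adult libraries, and open symbols at the left edge stand for 0 counts. Triangles lie to the right of circles for 39 genes, while Eif2ak2 and Ifih1 overlap and Samhd1 runs the other way.

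Of 9 interferon genes looked up, 6 were in the table, and no reads were counted for them. Ifnb1, Ifng, Ifna1, Ifna2, Ifna4 and Ifnk, which encode interferons beta, gamma, 3 forms of alpha and kappa, had 0 counts in all 9 libraries. That allows a level of up to 0.230 CPM in the library with the fewest counts per CPM and up to 0.132 CPM in the deepest. Reads that map to several places were not counted, which for the close relatives among the alpha interferon genes makes this limit uncertain.

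All 3 receptor genes rose at each step. Ifngr1, the ligand-binding chain of the interferon gamma receptor, stood at 122, 121 and 85.3 CPM in fetal, 230, 229 and 229 CPM in neonatal and 625, 499 and 441 CPM in adult libraries. The 3 ages did not overlap. Its log2 fold change was 2.26 (SE 0.16, adjusted p = 1.96e-06) in adult against fetal, 1.07 (SE 0.16, adjusted p = 0.00109) in neonatal against fetal and 1.19 (SE 0.16, adjusted p = 0.000144) in adult against neonatal. Ifngr2, the signalling partner of Ifngr1, went from 32.4 ± 0.621 to 45.8 ± 1.17 and 103 ± 6.93 CPM. Ifnar1, a chain of the type I receptor, went from 79.7 ± 4.42 to 98.6 ± 2.36 and 165 ± 12.2 CPM, the shallowest course of the 3. Its step from fetal to neonatal, 0.31 (SE 0.07), lost its call when library size alone was used for scaling, at 0.14. Per kilobase of exon, the adult level of Ifngr1 was 281 ± 50.9, against 40.3 ± 2.99 for Ifnar1 and 39.4 ± 2.66 for Ifngr2, whose values overlap.

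Of the 9 transcription factors, Irf4 was above the filter in adult libraries alone. The other 8 were called higher in adult than in fetal (34.9% of all genes) and in adult than in neonatal cultures (31.6%), and 5 of them in neonatal than in fetal (18.3%). Stat2 and Irf9, which act together in the complex that type I interferon activates, rose by similar amounts at each step. Stat2 measured 47.4, 47.4 and 38.4 CPM in fetal, 83.1, 83.0 and 77.4 in neonatal and 152, 150 and 127 in adult libraries, without overlap. That gave log2 fold changes of 0.87 (SE 0.10) and then 0.82 (SE 0.10). Irf9 measured 16.9, 16.9 and 19.9 CPM, then 27.2, 28.1 and 26.6, then 38.3, 41.4 and 37.4, also without overlap. Its log2 fold changes were 0.61 (SE 0.09) and 0.52 (SE 0.09).

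Irf7, the factor that amplifies type I interferon production, rose from 3.52 ± 0.466 CPM to 8.56 ± 0.53 and 24.8 ± 3.58 CPM. Irf5, which acts downstream of Toll-like receptors and is abundant in myeloid cells, rose from 5.12 ± 0.854 to 11.4 ± 1.04 and 78.1 ± 6.55 CPM. Both were called at each step. Irf1, an early target of interferon gamma, stood at 19.7, 18.6 and 26.7 CPM in fetal, 31.2, 31.5 and 31.1 in neonatal and 108, 88.1 and 79.3 CPM in adult libraries. Its gain was mostly in the later step, with a log2 fold change of 1.55 (SE 0.15, adjusted p = 2.04e-05), against 0.53 (SE 0.15, adjusted p = 0.0238) in the earlier. The earlier call of Irf1 was lost under library size alone (0.35) and when any fetal or neonatal library other than fetal replicate 3 was left out. These values were 0.46 without fetal replicate 1, 0.43 without fetal replicate 2, and 0.54, 0.53 and 0.54 without neonatal replicates 1, 2 and 3. Irf2, a relative that competes with Irf1 for its sites, went from 14.1 ± 2.34 to 18.7 ± 0.576 and 29.4 ± 5.55 CPM, with the later step called and the earlier not (0.41, SE 0.16, adjusted p = 0.0695).

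Irf3, Irf4 and Irf8 shared a course without a called change from fetal to neonatal cultures. Irf3, the constitutive factor that RNA and DNA sensors activate, measured 81.8, 83.6 and 69.2 CPM in fetal, 78.4, 82 and 89.7 in neonatal and 159, 154 and 148 in adult libraries. Fetal and neonatal libraries overlapped, while the adult libraries were all above them (0.88, SE 0.09, adjusted p = 2.1e-05 against neonatal). Irf3 shares 34 exon bases, 2.35% of its exons, with Bcl2l12 on the opposite strand. Irf8, a factor of the myeloid lineage, measured 1.13, 0.970 and 1.28 CPM in fetal, 1.43, 1.16 and 1.17 in neonatal and 25.9, 28.1 and 25.5 CPM in adult libraries. Its log2 fold change from neonatal to adult was 4.39 (SE 0.16, adjusted p = 5.24e-08), and from fetal to neonatal 0.16 (SE 0.18, adjusted p = 0.612). At the low counts of Irf8 in these younger libraries, the SE of the earlier step is smaller than counting error. Irf4, known from lymphocytes and from macrophages, had 1 count over the fetal, 6 over the neonatal and 799 over the adult libraries. The adult libraries stood at 29.7, 17.1 and 13 CPM, a level 182-fold that of neonatal cultures (95% counting interval 83.4 to 498).

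Macrophage markers moved with these genes. The summed level of 12 macrophage markers was 16.0, 14.7 and 72.7 CPM in fetal, 175, 158 and 161 CPM in neonatal and 4387, 5238 and 6035 CPM in adult libraries, and for each of the 12 the lowest adult value exceeded all younger ones. Of the 12, Cd163 was at 0 in all fetal and neonatal libraries and none was at 0 in the adult. The 12 markers of B, T and natural killer cells summed to 99.9 to 124 CPM in adult libraries, nearly all of it Cd4, which rat macrophages also carry, and Cd8a. Cd79b, Ms4a1 and Cd3d were at 0 there. Markers of endothelial cells summed to 14.6 to 18.1, 30.7 to 32.3 and 101 to 112 CPM in the 3 ages; without Tie1 the sums were 14.2 to 17.7, 29.1 to 30.5 and 32.6 to 42.4 CPM. In these bulk cultures, more cells of a type and more RNA of a gene per cell cannot be told apart, and the part of the macrophage markers in the results was not tested.

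Within the adult group the summed levels of the interferon response genes and of the macrophage markers did not peak in the same library. Summed over the 42 genes, the level was 1060, 1063 and 841 CPM in fetal, 2144, 2069 and 2065 CPM in neonatal and 5476, 4323 and 4069 CPM in adult libraries. Adult replicate 1 was the highest of the 3 adult libraries for 34 of the 42 genes (81.0%), while it was so for 40.6% of all genes tested. It had the lowest macrophage sum, and was highest for 2 of the 12 markers. Adult replicate 3 was highest for 2 of the 42 genes and for 8 of the 12 markers. Adult replicate 2 was highest for 6 genes, Irf5, Irf8, Irf9, Oas1a, Oas2 and Zbp1, and for 2 of the markers. The 10 fibroblast markers were divided: adult replicate 1 was highest for 5 (Pdgfra, Dcn, Tcf21, Ddr2 and Col1a2) and lowest for 5 (Col1a1, Col3a1, Lum, Thy1 and Vim). Col1a2 had 5, 5 and 4 counts in the adult libraries, near the floor and too few to rank them. Adult replicate 1 also had the lowest fibroblast sum, 26667 CPM against 32175 and 34608 CPM. With 3 libraries this is a description of those libraries.

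**Figure D3:**
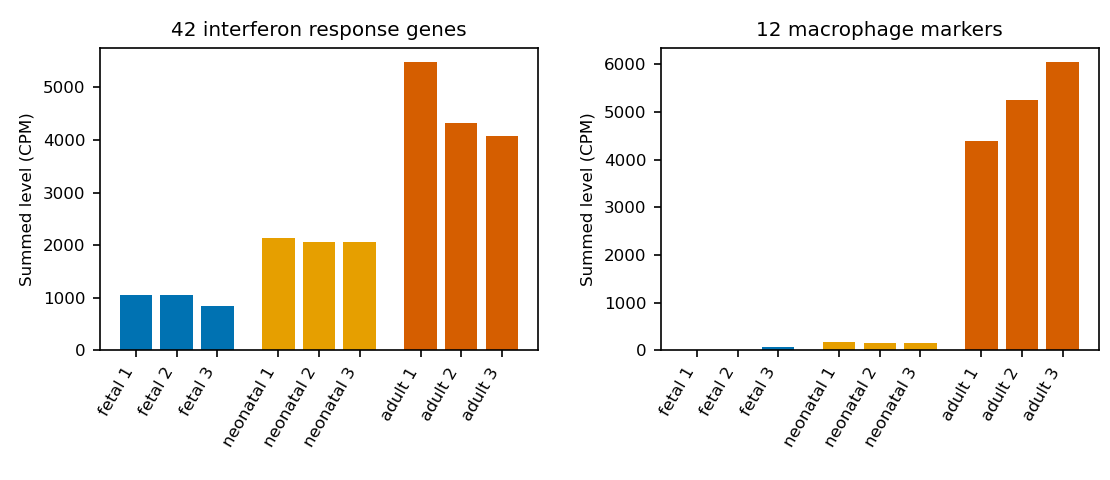
Summed level (CPM, linear axis from 0) of the 42 interferon response genes (left) and of 12 macrophage markers (right) in each library. Both are highest in adult libraries, but the left sum falls from adult 1 (5476 CPM) to adult 3 (4069 CPM) while the right sum is lowest in adult 1 (4387 CPM) and highest in adult 3 (6035 CPM).

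The 5 sensors of foreign nucleic acid split. Ddx58, which encodes the RNA sensor RIG-I, rose from 15 ± 1.74 to 25.1 ± 1.27 and 31.6 ± 4.28 CPM. Its earlier step of 0.74 (SE 0.12, adjusted p = 0.00197) was larger than the later one of 0.33 (SE 0.12, adjusted p = 0.035). The later call was lost without adult replicate 1 (0.22), without neonatal replicates 1, 2 or 3 (0.36, 0.29 and 0.33) and with no filter on low counts (0.30). Dhx58, which encodes LGP2, a helicase that tunes the signalling of RIG-I and MDA5, measured 1.03, 0.617 and 0.744 CPM in fetal, 1.93, 2.37 and 2.01 in neonatal and 21.1, 15 and 21.0 in adult libraries. Its log2 fold change in adult against fetal was 4.58 (SE 0.24, adjusted p = 2.73e-07), with no overlap between ages.

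Ifih1 and Eif2ak2 were the only genes of the list with no call in any comparison. Ifih1, the long-RNA sensor MDA5, measured 15.7, 15.6 and 7.76 CPM in fetal, 19.9, 18.7 and 17.2 in neonatal and 20.2, 17.9 and 14.4 CPM in adult libraries. Fetal replicate 3 was low, and fetal and adult libraries overlapped. Eif2ak2, the kinase PKR that stops translation on binding double-stranded RNA, measured 57.1, 59.5 and 47.1 CPM, then 59.2, 62.3 and 60.01, then 57.2, 53.2 and 55.2. Its adult libraries all lay below its neonatal ones. Its log2 fold change in adult against fetal was 0.02 (SE 0.09, adjusted p = 0.882), although its promoter holds a GAAANNGAA match at -16 to -8. Zbp1, a sensor of Z-form nucleic acid that can start cell death, had 0 counts over the fetal, 2 over the neonatal and 47 over the adult libraries. Its adult level, 1.15, 1.30 and 1.05 CPM, was at least 23.4-fold higher than in fetal libraries, with the floor of 3 counts set over the group (at least 14.5-fold without fetal replicate 2).

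Of the 12 effectors that act on viral RNA or nucleotides, 8 were above the filter only in adult or in neonatal and adult libraries, so that they could be counted only where the later ages were higher. Of the other 4, Ifit2, Isg20 and Cmpk2 were called higher and Samhd1 lower in adult than in fetal cultures (34.9% and 35.5% of all genes), and Ifit2 alone was called in neonatal against fetal. Alone among these 4, Ifit2, which binds foreign RNA, rose mostly in the earlier step. It measured 42.7, 46.6 and 13.8 CPM in fetal, 118, 117 and 110 CPM in neonatal and 141, 121 and 125 CPM in adult libraries. Neonatal and adult libraries were close but did not overlap, with a first step of 1.74 (SE 0.36, adjusted p = 0.00651) and a second of 0.16 (SE 0.34, adjusted p = 0.7). Its neighbour Ifit3, with motif matches at -43 to -35 and -24 to -16, measured 0.540, 0.573 and 0.213 CPM, then 0.826, 0.883 and 1.10, then 8.72, 5.49 and 6.07. The later step was 2.85 (SE 0.33, adjusted p = 6.82e-05) and the earlier 1.05 (SE 0.39, adjusted p = 0.0626). Ifit1, which binds uncapped or incompletely capped RNA, was scarce throughout, at 2.07, 0.722 and 1.27 CPM in adult libraries. In the count table's annotation the 3 genes lie on chromosome 1 between 252894663, the start of Ifit2, and 252946170, the end of Ifit1 (rn6). Per kilobase, adult Ifit2 stood at 37.7 ± 3.11, against 3.34 ± 0.852 for Ifit3 and 0.664 ± 0.331 for Ifit1.

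Oas1a and Oas2 encode oligoadenylate synthetases, which make the messenger that activates RNase L, and both were near the floor in fetal and neonatal libraries. Oas1a had 4 counts over the fetal and 11 over the neonatal libraries, and 4.67, 4.84 and 3.29 CPM in the adult ones. The adult level was 64.1-fold the fetal (95% counting interval 24.6 to 238), and 176-fold (31.2 to 6990) without fetal replicate 3, which held all but 1 of the fetal counts. Oas2 had 1 count over the fetal and 0 over the neonatal libraries and 1.99, 2.89 and 2.25 CPM in adult libraries, at least 43.8-fold higher than in neonatal (26.7-fold without neonatal replicate 2). Oasl, a relative that enhances RIG-I signalling, rose from 0.415 ± 0.0866 to 0.785 ± 0.21 and 13.5 ± 3.81 CPM, and only the later step was called (4.12, SE 0.30, adjusted p = 3.41e-06). Reads that map to several places were not counted, so the split of reads among close relatives of the Oas, Ifit, Mx, Gbp and Ifitm families is uncertain.

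Mx1 and Mx2, dynamin-like GTPases that trap viral particles, rose from neonatal to adult cultures. Mx1 had 7 counts over the fetal and 16 over the neonatal libraries and measured 11.7, 9.82 and 10.8 CPM in adult libraries, 92.2-fold the fetal level (95% counting interval 44.4 to 231), or 201-fold (55.2 to 1663) without fetal replicate 2. Mx2 measured 0.378, 0.397 and 1.06 CPM, then 0.881, 0.836 and 0.842, then 6.96, 3.25 and 4.19, so fetal and neonatal libraries overlapped. Rsad2, or viperin, which makes a chain-terminating nucleotide, had 6 fetal counts and 1.84, 1.30 and 2.40 CPM in adult libraries, 18.4-fold higher (95% counting interval 8.06 to 51.7). Its genomic neighbour Cmpk2, a mitochondrial nucleotide kinase, went from 1.83 ± 0.222 to 2.62 ± 0.309 and 4.82 ± 0.236 CPM, with the earlier step of 0.52 called only without fetal replicate 3 (0.60). Isg20, an exonuclease that degrades single-stranded RNA, measured 4.67 ± 0.226, 4.92 ± 0.576 and 8.71 ± 1.27 CPM, with the later step alone called (0.83, SE 0.17, adjusted p = 0.00186).

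Samhd1, which limits viruses by breaking down deoxynucleotides, was the single gene called lower at an older age. It measured 8.43, 8.25 and 10.0 CPM in fetal, 5.67, 6.92 and 6.54 in neonatal and 6.96, 5.49 and 5.02 CPM in adult libraries. All fetal libraries lay above all others, and neonatal and adult libraries overlapped. The log2 fold change of adult against fetal was -0.61 (SE 0.17, adjusted p = 0.00976). Neonatal against fetal, at -0.48 (SE 0.17), just missed the threshold with an adjusted p = 0.0503, and passed it under DESeq2 (-0.49, adjusted p = 0.0328) and under 4 of the other alternatives run.

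Isg15 and Usp18 form a modifier pair: Isg15 is a ubiquitin-like protein attached to others on interferon, and Usp18 removes it and damps the type I receptor. Isg15 measured 2.43, 1.72 and 1.22 CPM in fetal, 2.86, 2.37 and 2.59 in neonatal and 7.88, 6.43 and 7.34 CPM in adult libraries. Only its later step, 1.47 (SE 0.25, adjusted p = 0.00063), was called, while without fetal replicate 1 the earlier step was called too (0.81). Usp18 measured 0.540, 0.441 and 1.43 CPM, then 0.440, 0.651 and 0.647, then 10.9, 8.16 and 8.16. Fetal replicate 3 was the highest of the 6 younger libraries, and the later step was 3.95 (SE 0.42, adjusted p = 3.55e-05). Usp18 was above the filter in adult libraries alone, so that call adds nothing to the direction. The partners Parp9 and Parp14, ADP-ribosyltransferases that adjust interferon signalling, differed in the later step. Parp9 rose at both steps, from 20.0 ± 2.4 to 42.3 ± 2.07 and 96.7 ± 11 CPM. Parp14 rose from 21.4 ± 1.24 to 40.9 ± 4.14 CPM and then stood at 50.2 ± 10.2 CPM, with a later step of 0.30 (SE 0.14, adjusted p = 0.0895) that passed the threshold without adult replicate 3 (0.42) and under library size alone (0.35). That difference between Parp9 and Parp14 was not tested.

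The 3 Ifitm genes, small membrane proteins that block virus entry, held the largest part of the list's RNA. They made up 30.1% of its summed mean CPM in fetal, 41.9% in neonatal and 44.7% in adult cultures. Ifitm3 was first per kilobase at each age, at 244 ± 56.2, 716 ± 42.9 and 1459 ± 320 CPM per kilobase. Its steps were 1.56 (SE 0.19) and then 1.03 (SE 0.19). Ifitm1 changed most, measuring 40.2, 42.8 and 28.7 CPM in fetal, 257, 249 and 247 in neonatal and 1042, 705 and 655 CPM in adult libraries. Its earlier step, 2.75 (SE 0.20, adjusted p = 3.9e-05), was larger than its later one, 1.67 (SE 0.19, adjusted p = 7e-05), and no ages overlapped. Ifitm2 measured 125, 122 and 94.5 CPM, then 199, 189 and 190, then 434, 372 and 348, for steps of 0.77 (SE 0.12) and 0.99 (SE 0.12). On rn6, Ifitm2, Ifitm1 and Ifitm3 lie in that order on chromosome 1 between 213750219 and 213811821. Without the 3 genes, the other 39 summed to 610 to 731 CPM in fetal, 1203 to 1226 in neonatal and 2331 to 2899 CPM in adult libraries, again without overlap.

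Bst2, or tetherin, which holds budding viruses at the cell surface, measured 1.24, 1.37 and 4.52 CPM in fetal, 6.33, 4.83 and 6.73 in neonatal and 92.3, 72.7 and 81.0 CPM in adult libraries. Its adult level was far above all others, and its log2 fold change in adult against fetal was 5.12 (SE 0.40, adjusted p = 4.99e-06). Fetal replicate 3 came close to the lowest neonatal library, and without it the log2 fold change was 5.96 in adult against fetal and 2.17 in neonatal against fetal. The earlier step of Bst2, 1.34 (SE 0.41, adjusted p = 0.0343), lost its call without fetal replicate 1 (1.04), fetal replicate 2 (1.04) or neonatal replicates 1 (1.29), 2 (1.48) or 3 (1.25). It was lost too under library size alone (1.15) and in a fit to those 2 ages alone (1.33).

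**Figure D4:**
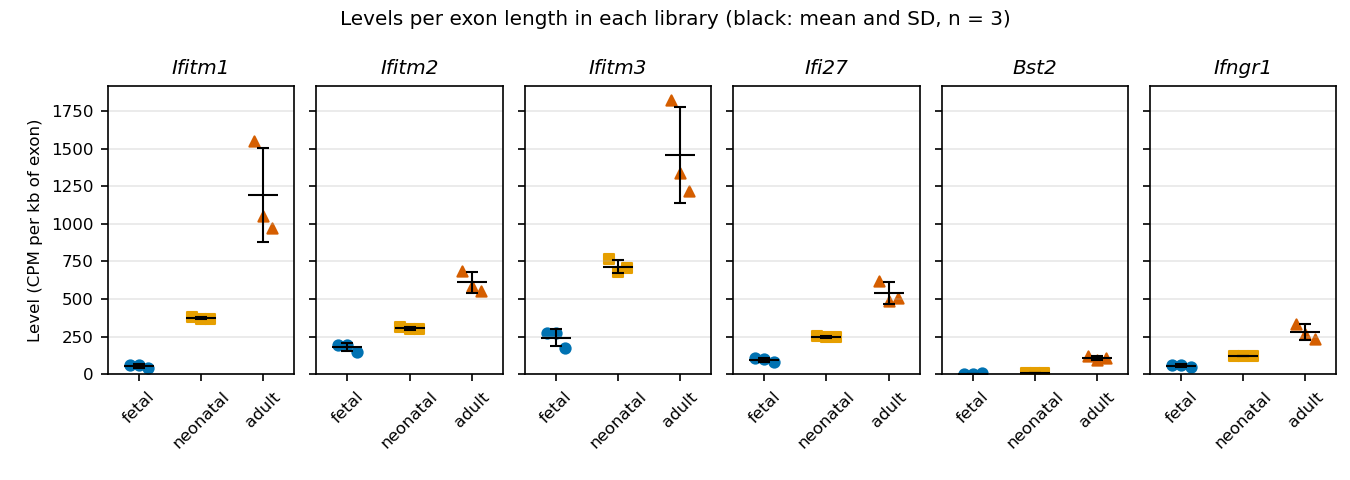
Level per kilobase of exon (linear axis from 0) of Ifitm1, Ifitm2, Ifitm3, Ifi27, Bst2 and Ifngr1 in each library, with the mean and SD (n = 3) in black. Ifitm3 is highest at each age (1459 ± 320 in adult cultures), and Ifitm1 goes from below Ifitm2 in fetal to above it in adult cultures.

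Gbp2 and Gbp5, guanylate-binding proteins that interferon gamma strongly induces, rose mostly in the later step. Gbp2 measured 3.56, 3.31 and 8.29 CPM in fetal, 11.2, 12.2 and 12.8 in neonatal and 120, 85.6 and 73.0 CPM in adult libraries, without overlap. The later step was 2.95 (SE 0.32, adjusted p = 5.64e-05). The earlier, 1.26 (SE 0.34, adjusted p = 0.0205), lost its call without fetal replicate 1 (1.07), fetal replicate 2 (1.02), neonatal replicate 2 (1.25) or neonatal replicate 3 (1.23). Gbp5 went from 1.66 ± 0.681 to 2.23 ± 0.151 and 17 ± 2.44 CPM, and its earlier step was called only without fetal replicate 3 (0.83). Ifi27, a mitochondrial and nuclear-envelope protein, and Ifi44, a cytoplasmic one, rose more evenly. Ifi27 measured 88.1, 80.4 and 65.8 CPM, then 207, 197 and 198, then 498, 392 and 404, and Ifi44 had its larger value in the earlier step (1.51, SE 0.15, against 0.80, SE 0.15). Ifi35, a partner of the Nmi protein, went from 11.1 ± 2.43 to 17.1 ± 1.0 and 27.8 ± 1.58 CPM. Its earlier step of 0.62 lost its call under library size alone (0.44).

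**Figure D5:**
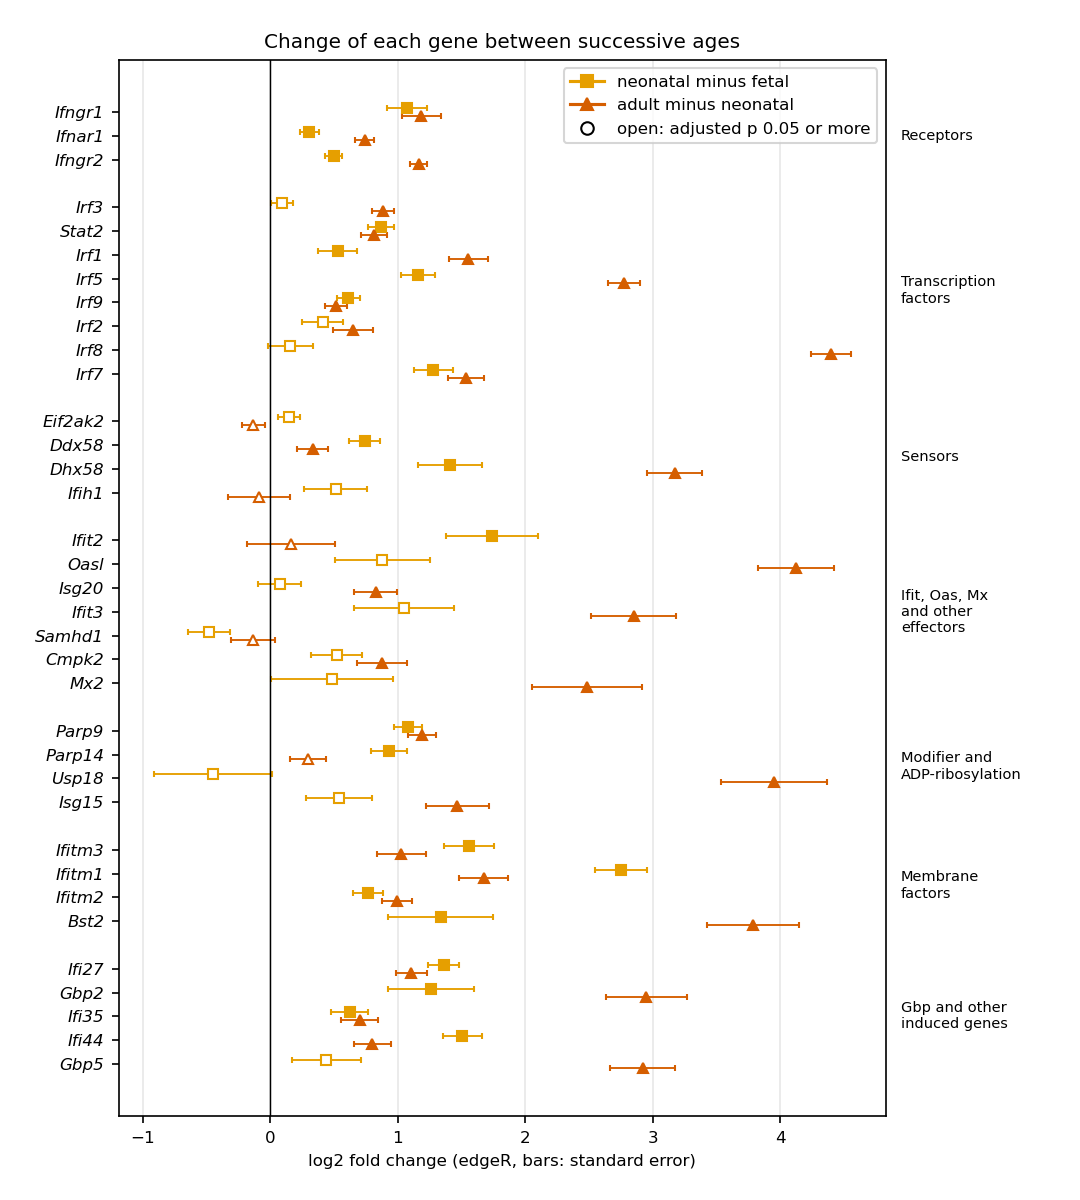
log2 fold change with its standard error for neonatal minus fetal (squares) and adult minus neonatal (triangles) in 35 of the 42 genes, grouped by role; open symbols were not called, and 7 genes with 10 or fewer counts over the fetal or neonatal libraries are left out. Irf8, Oasl, Usp18 and Bst2 have the largest values of the later step. Ifitm1, Ifit2, Ifitm3, Ifi27, Ifi44 and Ddx58 are among the genes with their larger value in the earlier one. Bst2 was also called in the earlier step (1.34), and Usp18 was above the filter in adult libraries alone. At low counts the standard error can fall below counting error.

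Fetal replicate 3 was above both other fetal libraries for 15 of the 42 genes, below both for 22 and between them for 5. Over all genes tested it was above for 43.6% and below for 44.4%. The genes where it was highest included Bst2, Gbp2, Gbp5, Usp18 and Mx2, and those where it was lowest included Ifit2, Ifih1 and the 3 Ifitm genes. Its macrophage sum was 72.7 CPM, against 14.7 and 16.0 CPM. The part of this in the results was not tested. Without fetal replicate 3, 23 of the 42 genes, in place of 21, were called higher in neonatal than in fetal cultures. With each fetal or neonatal library left out in turn, all genes called higher there ran from 1386 to 2419, against 2074 with none left out.

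Promoters with and without the interferon regulatory factor motif overlapped in their genes' changes. For the 16 genes with GAAANNGAA the median log2 fold change was 2.52 in adult against fetal, with a range from 0.02 to 5.85. For the 15 without it the median was 2.08, with a range from -0.61 to 9.70. The medians were 1.16 and 0.62 in neonatal against fetal, and 1.07 and 1.19 in adult against neonatal. The medians and ranges include genes near the floor, Irf4 (9.70) and Oas1a (5.85) among them, whose fitted values depend on the prior count.

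Other genes of the pathway, 66 symbols listed beside the 42, were in the table for 52 and testable for 41. They were listed with earlier results of these data known, so their calls are not a separate test. In adult against fetal cultures 37 of the 41 were called higher and 1 lower (34.9% and 35.5% of all genes), in neonatal against fetal 24 and 1 (18.3% and 18.0%), and in adult against neonatal 31 and 1 (31.6% and 31.8%). Of the 41, 33 were above the filter in the libraries of all 3 ages. These 33 gave 29 called higher and 1 lower in adult against fetal, 22 and 1 in neonatal against fetal, and 23 and 1 in adult against neonatal, with median log2 fold changes of 1.47, 0.63 and 0.75. In adult against fetal, 7 of 9 for receptor signalling and its inhibitors were called higher, 7 of 8 sensors and adaptors, and 15 of 16 effectors and other induced genes.

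The receptor kinases Jak1, Jak2 and Tyk2 were all higher in adult than in fetal libraries without overlap (35.9% of all genes). Jak1 ran from 290 to 318 CPM in fetal and from 402 to 483 CPM in adult libraries. Their courses are set side by side, and the differences between them were not tested. Jak1, which both interferon receptors use, rose from 305 to 466 CPM between fetal and neonatal cultures (0.61, SE 0.08, adjusted p = 0.00064) and then stood at 441 CPM (-0.08, SE 0.08, adjusted p = 0.41). Jak2, which pairs with Jak1 on the interferon gamma receptor, measured 39.9, 42.2 and 60.9 CPM, then 82.5, 83.5 and 79.2, then 299, 223 and 185. Its log2 fold change was 2.31 (SE 0.20, adjusted p = 9.1e-06) in adult against fetal. Tyk2, the partner of Jak1 on the type I receptor, rose by 0.93 (SE 0.13, adjusted p = 0.00017) over the same span.

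Socs3, a feedback inhibitor of JAK kinases, rose from 14.4 to 129 CPM between fetal and adult means, with adult libraries at 189, 107 and 90.4 CPM. Tmem173, or STING, the adaptor of DNA sensing, measured 5.51, 4.98 and 4.41 CPM, then 8.86, 7.95 and 10.2, then 60.3, 56.0 and 60.6. Tlr7, an endosomal RNA receptor of immune cells, had 7 counts over the fetal libraries, nearly all in replicate 3, and stood at 24.5, 33.4 and 32.7 CPM in the adult ones, 260-fold the fetal level (95% counting interval 126 to 648), or 1248-fold (224 to 49340) without fetal replicate 3 and 162-fold (78.2 to 403) without fetal replicate 2. Oas3 was at 0 in the 6 younger libraries and at 1.30, 2.74 and 2.40 CPM in the adult ones, at least 43.2-fold higher than in fetal (26.9-fold without fetal replicate 2). Rtp4, a chaperone-like protein that interferon induces, had 6 fetal counts and 11.2, 7.15 and 7.26 CPM in adult libraries, 85.2-fold the fetal level (95% counting interval 38.7 to 234), or 318-fold (56.7 to 12599) without fetal replicate 2. The gene called lower from neonatal to adult cultures was Trim21, an intracellular antibody receptor, with means of 3.47, 11.4 and 6.87 CPM at the 3 ages. Trim21 falls outside the naming rule and was named after its values were seen.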

How the data were processed

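RNA libraries of 9 cultures were compared by age, with groups taken from the sample titles. Per the submitters' processing notes, FastQC, Trimmomatic 0.39, STAR 2.5.2b, featureCounts and DESeq2 were used; their order and settings are not given in the sources used here. The deposited counts are whole reads per gene, made by the authors with featureCounts 1.6.3 (Subread) on an rn6 annotation per the file headers, whose command sets no strand and no multi-mapping option. A second deposited table holds the authors' normalized signal, which equalled count over 1 size factor per library in 100% of values (relative tolerance 1e-05); it was used for this check only, and the median-of-ratios alternative was computed from the counts (RLE in edgeR).

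Counts were tested in R 4.3.3 with edgeR 4.0.16 (filterByExpr, TMM, robust quasi-likelihood, age as the only term, all 9 libraries), and limma 3.58.1 was loaded with it. Standard errors were derived from the fold change and F. DESeq2 1.42.0, other scalings and filters, fits to 2 ages, the replicate block and leaving out each library were alternatives. The model was checked on simulated counts. Library totals are in the text. Every listed gene in the table was named, and of the other pathway genes Jak1, Jak2, Tyk2 and, per sub-list, the 2 largest called changes in adult against fetal; some genes that the rule names are not reported here. The genes and lists were chosen with earlier results of these data known. Of the 42 symbols, 41 matched the current RefSeq GRCr8 symbols and 1, Ddx58, a synonym. Replicate numbers did not pair the libraries: same-numbered deviations correlated between -0.065 and 0.052.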

Additional observations from a re-analysis of the deposited data

How the results depend on the processing

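The medians of the 42 interferon response genes (the members) kept their direction under every alternative run, and no called member reversed. Leaving out each library in turn gave 18 to 23 members called higher in neonatal against fetal, 39 in adult against fetal and 36 to 38 in adult against neonatal. Over all genes, those called higher ran from 1386 to 2419, 3721 to 4298 and 3062 to 3414 in the same order. For the other pathway genes called lower, that range was 1 to 2 in neonatal against fetal and 1 to 3 in adult against neonatal; for all genes called lower in neonatal against fetal it was 1090 to 2260. A minimum log2 fold change of 1 left 12 members and 11 other pathway genes called higher in neonatal against fetal, 0 members lower in adult against fetal and 0 other pathway genes lower in adult against neonatal. Over all genes it left 657 higher and 615 lower in neonatal against fetal, 1880 and 1795 in adult against fetal, and 1455 and 1383 in adult against neonatal. Samhd1 made 1 member lower in neonatal against fetal under DESeq2, median-of-ratios scaling, library size alone, a stricter filter (1 CPM in 3 libraries) or a fit to the 2 ages, and Eif2ak2 made 1 in adult against neonatal in the last. Other pathway genes called lower in adult against neonatal were 2 with no filter and 3 in the fit to 2 ages.

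Library size alone shifted the median of all genes by -0.17 in neonatal against fetal and by -0.11 in adult against fetal; 1360 genes were then called higher and 3325 lower in neonatal against fetal, against 2074 and 2040, and 2 other pathway genes lower. Under it 4 uncalled members turned sign in neonatal against fetal, Irf3 (-0.073), Irf8 (-0.011), Isg20 (-0.097) and Eif2ak2 (-0.015), and Eif2ak2 in adult against fetal (-0.088, and -0.0069 with no filter). Leaving out a library took Isg20 from -0.010 to 0.14 and Usp18 from -0.76 to 0.25 in neonatal against fetal, Eif2ak2 from -0.084 to 0.079 in adult against fetal and Ifih1 from -0.20 to 0.034 in adult against neonatal. The cause was not tested. With the replicate block 23, 40 and 38 members were called higher in the 3 comparisons, adding Irf2 and Ifih1, Ifih1, and Parp14; no pairing comes from the labels, and the count of all genes called moved by less than 1.5 times. Depth limits genes near the floor, for which ratios with counting intervals or lower bounds were given; leaving out a library from these ratios, and counting only genes above the filter at all ages, were chosen after seeing the data.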
